A study of Mus musculus with 24 samples.

Results

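NF-kB is a family of dimeric transcription factors, and its genes are described here across 24 RNA-seq libraries of mouse immune cells. The set held 10 genes of the 23420 gene symbols in every count file, and they were found by symbol alone: the 5 subunits Nfkb1, Nfkb2, Rel, Rela and Relb, and the 5 inhibitors or modulators Nfkbia, Nfkbie, Nfkbiz, Tnfaip3 and Tnip1. The libraries fell into 10 groups. Th2 cells, the helper T cells that make interleukin-4, were either WT or TDG iKO, with 4 libraries of each genotype. Bone marrow-derived macrophages (BMDMs) came in a Tdg cohort (WT and TDG iKO) and a Tet cohort (WT and TET iTKO), and every genotype was left unstimulated (0 h) or stimulated for 6 h with KLA, Kdo2-lipid A, an agonist of Toll-like receptor 4, with 2 libraries for each genotype and time.

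TDG iKO cells had floxed Tdg, the gene of thymine DNA glycosylase, a base excision repair enzyme, deleted. TET iTKO cells had floxed Tet1, Tet2 and Tet3, the genes of the 5-methylcytosine oxidases, deleted together. By the authors' qRT-PCR in differentiated Th2 cells, most but not all of the floxed exons of each gene were deleted. In both lines the recombinase was CreERT2, switched on by tamoxifen, and deletion was not limited to macrophages or T cells. Control animals also received tamoxifen, and a Rosa26 reporter behind a LoxP-STOP-LoxP cassette (H2B-EGFP/GPI-mCherry or EYFP) marked Cre activity. All mice were C57BL/6 and 8 to 16 weeks old. Naive CD4+ T cells were turned into Th2 cells with anti-CD3, anti-CD28, IL-4 and anti-IFN-γ before growth in IL-2, and marrow was grown into BMDMs with L929-conditioned medium and M-CSF. The labels call the controls wild type and give no donor animal for any library, so the p-values below measure the spread between these libraries, which may be technical.

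In resting cells, NF-kB dimers are held in the cytoplasm by IkB proteins, and Toll-like receptor signalling through the IKK kinases marks IkB for destruction and frees the dimers to enter the nucleus. Rela, Rel and Relb carry transactivation domains, whereas Nfkb1 and Nfkb2 encode precursors that are processed to DNA-binding subunits and that act like IkB proteins before processing. Several of the genes that NF-kB switches on encode its own inhibitors, which makes the pathway self-limiting. In macrophages it is a main route by which bacterial lipids induce inflammatory genes.

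In the mm9 annotation, Nfkb1 lay at chr3:135247619-135354511, Nfkb2 at chr19:46379227-46386580, Rel at chr11:23641514-23670970, Rela at chr19:5637483-5648130 and Relb at chr7:20191566-20214787. The inhibitor genes lay at chr12:56590398-56593634 (Nfkbia), chr17:45692665-45700118 (Nfkbie), chr16:55811488-55839012 (Nfkbiz), chr10:18720716-18735463 (Tnfaip3) and chr11:54724289-54776419 (Tnip1). The span of Nfkb2 overlapped Psd and that of Tnip1 overlapped Gm12230, each on the opposite strand, and the strand setting of the counting was not given in the sources used here, so part of the counts of these 2 genes could belong to the neighbour.

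Promoter windows of 300 bases, from 250 before to 50 after a start site, were read from RefSeq (GRCm38.p6) for 7 of the 10 genes, Nfkb2, Rel, Rela, Nfkbia, Nfkbie, Tnfaip3 and Tnip1, and searched on both strands for the NF-kB consensus, a motif of 10 bases. At least 1 match lay in a window of 6 of these 7 genes, all but Rela, whereas 1480 of all 32851 RefSeq windows of that length (4.51%) and 1388 of 27025 genes (5.14%) held one. Sequences of 4 promoters are given because their genes were the most closely correlated members or the most abundant one, and the capitals mark every base covered by a match. A match is a run of letters and says nothing on its own about binding.
Nfkb2 (chr19:46304487-46304786, plus strand): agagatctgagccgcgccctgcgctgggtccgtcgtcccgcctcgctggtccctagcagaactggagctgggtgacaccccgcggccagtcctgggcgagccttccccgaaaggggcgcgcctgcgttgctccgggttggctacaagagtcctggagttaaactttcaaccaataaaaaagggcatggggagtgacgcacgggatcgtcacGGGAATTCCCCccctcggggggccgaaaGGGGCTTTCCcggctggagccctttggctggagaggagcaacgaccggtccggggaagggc
Nfkbie (chr17:45555450-45555749, plus strand): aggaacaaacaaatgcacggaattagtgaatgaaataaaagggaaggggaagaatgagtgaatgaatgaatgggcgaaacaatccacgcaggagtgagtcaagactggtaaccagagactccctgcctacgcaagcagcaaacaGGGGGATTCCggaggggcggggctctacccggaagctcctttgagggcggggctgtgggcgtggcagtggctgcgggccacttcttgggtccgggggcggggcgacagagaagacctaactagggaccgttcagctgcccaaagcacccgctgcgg
Tnip1 (chr11:54962891-54963190, minus strand): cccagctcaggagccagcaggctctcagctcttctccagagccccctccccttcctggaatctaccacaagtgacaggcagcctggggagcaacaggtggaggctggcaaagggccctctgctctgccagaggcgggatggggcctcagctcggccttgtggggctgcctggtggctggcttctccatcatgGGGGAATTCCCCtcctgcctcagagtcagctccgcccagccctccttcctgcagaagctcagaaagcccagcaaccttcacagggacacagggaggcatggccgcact
Nfkbia (chr12:55492598-55492897, minus strand): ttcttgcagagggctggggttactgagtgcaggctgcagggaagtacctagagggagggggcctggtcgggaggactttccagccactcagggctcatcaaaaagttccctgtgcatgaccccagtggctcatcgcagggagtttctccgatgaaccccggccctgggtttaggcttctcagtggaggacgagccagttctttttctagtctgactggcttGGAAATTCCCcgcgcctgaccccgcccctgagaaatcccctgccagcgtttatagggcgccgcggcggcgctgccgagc
The palindrome GGGAATTCCC was read in both the Nfkb2 and the Tnip1 window, with its first base at -39 and -57 relative to the start site. In Nfkb2 a further match, GGGGCTTTCC, began at -11, and the windows of the gene's other RefSeq start sites held GGAATGTCCC and GGGACTTTCC. Nfkbia held GGAAATTCCC beginning at -29. The single match in Nfkbie, GGGGGATTCC, began at -106. Tnfaip3 held GGGACACCCC and GGAAATCCCC, beginning at -125 and -12 from one start site, and its other window held none. Rel held GGGAAATCCC, beginning at -92.

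**Figure D1:**
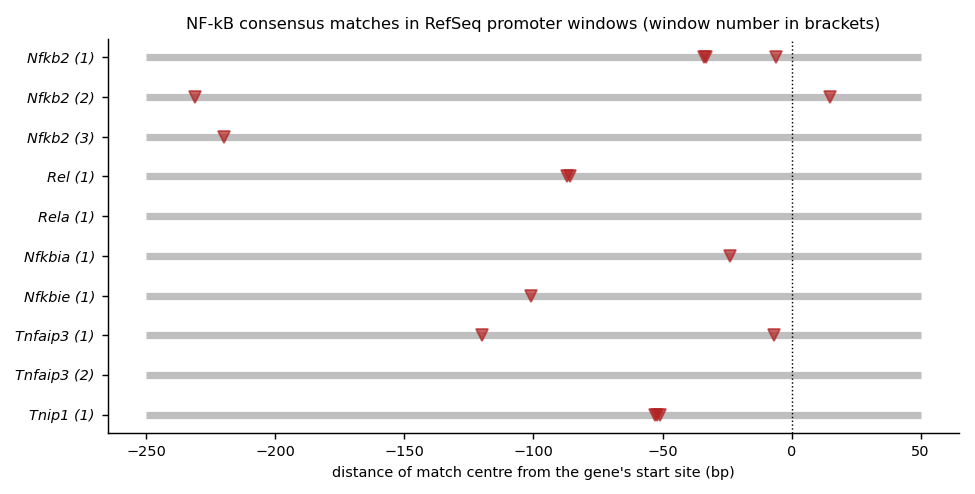
Positions of NF-kB consensus matches (triangles) in the 10 RefSeq promoter windows of 7 genes, as the distance in bp from the match centre to the start site (dotted line). Grey bars are the windows searched, and neither the Rela window nor the second Tnfaip3 window holds a match.

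Between 4982950 and 26657729 read pairs were assigned to genes in each library. Replicates 3 and 4 of each Th2 genotype differed little more than counting noise (mean chi-square per gene 1.34 and 1.51, against at least 10.9 in every other pair of replicates) and were summed and counted as 1 sample, which left 3 Th2 samples for each genotype. The shallowest library, WT 0 h replicate 2 of the Tdg cohort, stood apart from replicate 1. Across genes its ratio to replicate 1 followed exonic length with Spearman's rho of -0.377. For the TDG iKO 0 h pair the rho was 0.299, and a ratio alone does not show which library of a pair is unusual. Counts of calls that use this WT library are given with and without it, while levels per kb and correlations include it. Macrophage markers summed to between 18920 and 24980 CPM, counts scaled to library size, in every BMDM library and to at most 5.20 in Th2 samples, where Csf1r and Mertk were at 0. The Th2 markers summed to between 629.5 and 788 CPM in Th2 samples and to at most 1.06 in BMDMs. Tdg had very few counts in every group, WT included, too few to read as a level. Its normalised counts were 0 in all TDG iKO BMDMs and 0 to 2.37 in their controls. In Th2 cells they were 1.86 to 2.47 in TDG iKO and 2.91 to 11.8 in WT. Tet2 and Tet3 were no lower in TET iTKO than in WT. Counts per gene do not show the loss of single exons, so they do not check the labels.

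To compare genes with each other, counts were normalised over all 22 samples together and divided by exonic length. Nfkbia, the gene of the classical inhibitor IkB-alpha, had the highest mean level of the 10 in every group, and Rel, the gene of the c-Rel subunit, had the lowest. In both Th2 groups the ranges of Nfkbia and Nfkb1 overlapped, and in unstimulated BMDMs of the Tdg cohort those of Relb and Rel did. In WT BMDMs of the Tet cohort at 0 h the level per kb was 1224 ± 44 (SD, n = 2) for Nfkbia and 71.8 ± 4.85 for Rel, with Rela at 399 ± 13.8 in second place. No 2 genes that stood next to each other in that group overlapped between libraries. At 6 h the order in the same WT cells ran Nfkbia at 5908 ± 560.0, Tnip1 at 1518 ± 63.4, Nfkb2 at 1192 ± 132 and Nfkb1 at 841 ± 108, with Rela down in seventh place at 639 ± 92.2. There the ranges of Nfkb1, Tnfaip3 and Nfkbie overlapped from one to the next. Rank by rank, Nfkb2 therefore moved from the sixth to the third place and Rela from the second to the seventh, on this scale, although both levels were higher at 6 h. When the longest transcript replaced the exonic length, Nfkbia stayed first and Rel last in all 10 groups, while Rela and Tnip1 changed places at the second and the third rank in that 0 h group.

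The span between the highest and the lowest of the 10 groups also differed between genes on this scale per kb. It was 12.8-fold for both Tnip1 and Nfkbie, each lowest in TDG iKO Th2 cells, and 2.22-fold for Rela, lowest in the same cells. Nfkb1 was the only member for which Th2 cells stood above every unstimulated BMDM group, at 854 ± 62.7 (n = 3) in WT Th2 cells against 197 ± 50.3 and 283 ± 13.6 in unstimulated WT BMDMs of the Tdg and Tet cohorts. For the other 9 genes the highest group was one of the KLA-stimulated groups, as it was for Nfkb1. The library ranges of neighbouring groups often overlapped, and those of the 2 Th2 genotypes overlapped for 8 of the 10 genes.

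**Figure D2:**
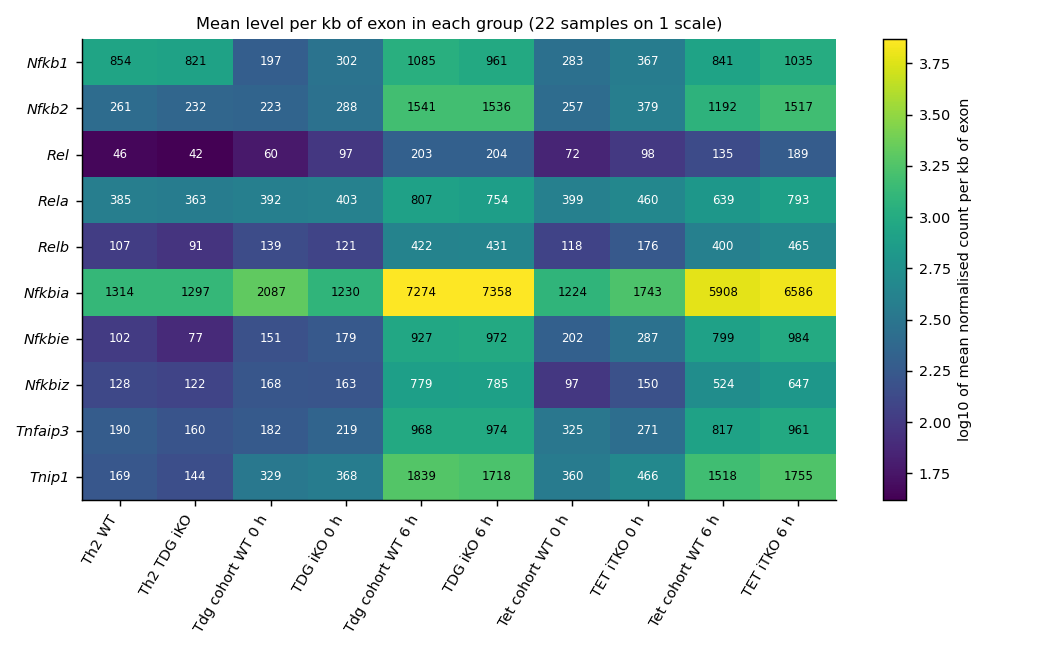
Mean level of each gene in each group, as normalised counts per kb of exon on 1 scale for 22 samples (numbers in cells; colour, log10 of the same value; n = 3 for Th2 groups and 2 for BMDM groups). Nfkbia is the highest row and Rel the lowest in all 10 columns, and the 4 columns at 6 h stand above their 0 h counterparts in every row.

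KLA raised the whole set in the Tet cohort. There all 10 genes rose over 6 h in WT BMDMs and all 10 in TET iTKO BMDMs (DESeq2, adjusted p under 0.05), where 13.1% and 12.8% of all genes tested were called higher. edgeR called all 10 as well, against 14.3% and 13.4% of its genes. The median log2 fold change of the 10 was 1.88 in WT and 1.80 in TET iTKO, beside -0.01 and -0.01 over all genes. In the Tdg cohort DESeq2 called 9 of 10 in WT (5.29% of all genes called higher) and 8 of 10 in TDG iKO (4.27%), and edgeR called 6 (2.55%) and 4 (2.01%). In all 4 genotypes every 6 h library stood above every 0 h library for each of the 10 genes, and the share of all genes with this arrangement was not counted.

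Among the subunits the largest KLA response was that of Nfkb2, the precursor of the non-canonical pathway. In the Tet cohort its normalised counts were 986 and 976 in WT at 0 h and 4210.3 and 4925 at 6 h. This is a log2 fold change of 2.22 ± 0.15 (SE, adjusted p = 5.29e-46 by DESeq2). Relb, the partner of the processed Nfkb2 product, went from 538 and 528 to 1702 and 1926 (1.77 ± 0.14). Nfkb1, the precursor of the subunit that pairs with Rela, went from 1627 and 1516 to 4271 and 5125 (1.58 ± 0.14). Rel and Rela responded least. Rel went from 222 and 244 to 374 and 509 (0.92 ± 0.22, adjusted p = 0.000159 by DESeq2), and without WT 6 h replicate 2 its adjusted p was 0.0505. Rela, the gene of the main activating subunit, went from 1226 and 1285 to 1816 and 2227. Its log2 fold change of 0.69 ± 0.13 (adjusted p = 1.48e-06 by DESeq2) was the smallest of the 10.

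Each of the inhibitor genes rose in the same WT cells. Nfkbiz, the gene of a nuclear IkB protein that can also act as a coactivator, went from 571 and 555 to 2814 and 3309 normalised counts, the largest fold of the set (2.44 ± 0.15, a 5.44-fold rise). Nfkbia went from 2182 and 2290.2 to 10127 and 11576 (2.28 ± 0.12). Tnip1, which encodes a ubiquitin-binding partner of Tnfaip3, went from 1448 and 1499 to 6072 and 6437 (2.09 ± 0.11). The libraries of the 2 times were far apart for each of these 3 genes. Nfkbie, the gene of IkB-epsilon, went from 574 and 561 to 2062 and 2448 (1.99 ± 0.14). Tnfaip3, the gene of a ubiquitin-editing enzyme that switches off signalling upstream of IKK, had the smallest response of the inhibitors in these WT cells, from 2573 and 2872 to 5903 and 7854 (1.34 ± 0.14).

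**Figure D3:**
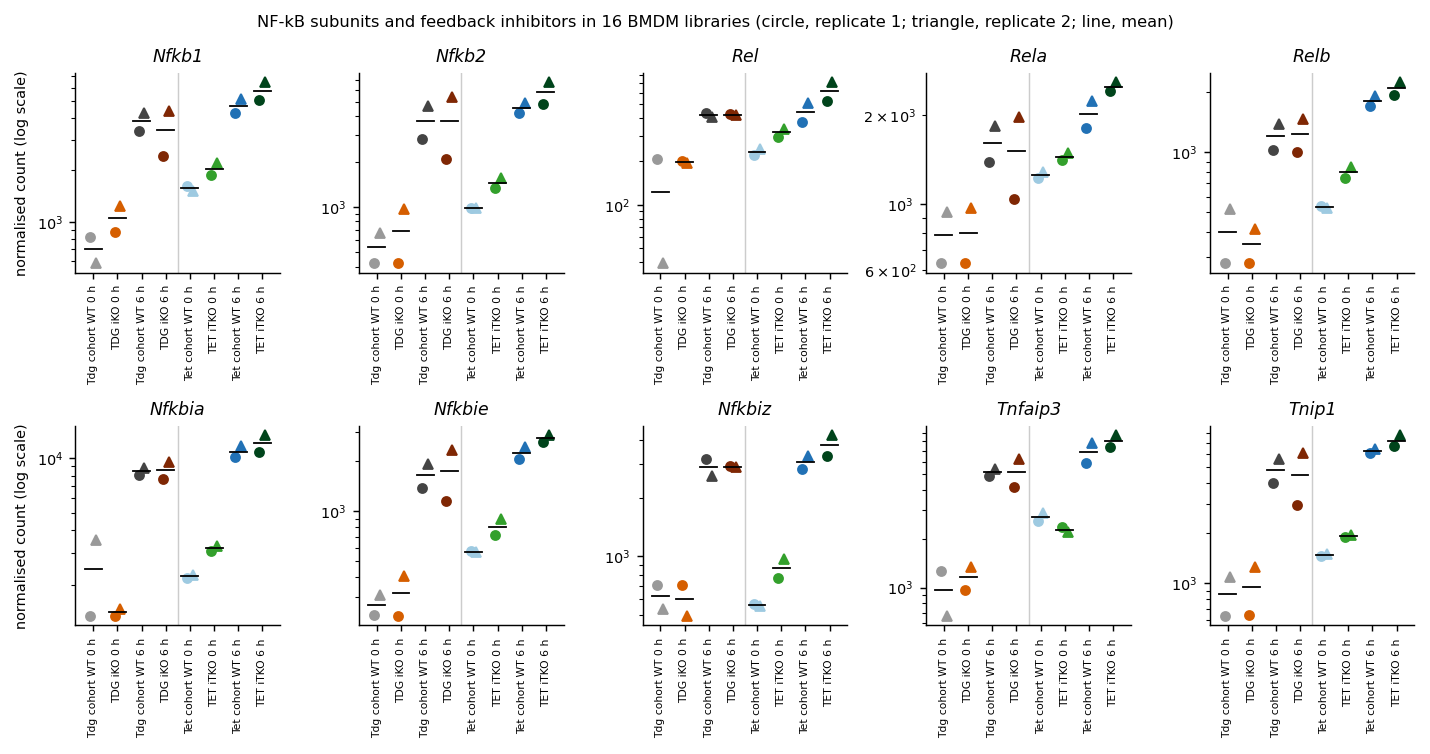
Normalised counts (log scale) of the 10 genes in the 16 BMDM libraries, by genotype and hours of KLA, with the mean of each pair as a line; the Tdg cohort (left of the grey line) and the Tet cohort (right) were normalised separately. All 6 h libraries lie above the 0 h libraries of their genotype, and triangle and circle of WT 0 h in the Tdg cohort lie far apart for Rel (39.1 and 208 counts) and Nfkbia (3537 and 1350).

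In the Tdg cohort the same genes responded with wider errors. With all libraries and in either direction, DESeq2 called 1001 of 11633 genes in WT and 824 of 11633 in TDG iKO. In WT, Nfkb2 went from 421 and 667 to 2822 and 4658 (2.78 ± 0.54, adjusted p = 1.41e-05 by DESeq2) and Nfkbie from 233 and 308 to 1376 and 1937 (2.62 ± 0.45). Both inhibitors of the Tnfaip3 and Tnip1 pair were also higher, Tnfaip3 from 1272 and 663 to 4903 and 5409.6 (2.41 ± 0.39) and Tnip1 from 631 and 1093 to 4004 and 5591 (2.48 ± 0.48). Rela was the member not called, with 636 and 941 at 0 h and 1391 and 1842 at 6 h (1.04 ± 0.42, adjusted p = 0.111 by DESeq2). With the replicate block nested in genotype, Rela was called too (adjusted p = 0.000438 by DESeq2). Rel, called in WT (adjusted p = 0.0353 by DESeq2), went from 208 and 39.1 to 432 and 406, and the low value is that of the library that stood apart. Without it 9 of 10 genes were still called (7.21% of all genes in either direction). Leaving out WT 6 h replicate 2 gave the smallest count, 6 of 10 (3.2%). In TDG iKO, Nfkbia went from 1363 and 1478 to 7669 and 9464 (2.59 ± 0.43, adjusted p = 1.12e-07 by DESeq2), and Rel (1.09 ± 0.57) and Rela (0.91 ± 0.42) were not called, although the same replicate block called Rela (adjusted p = 0.00567 by DESeq2). Without TDG iKO 6 h replicate 2 the count in TDG iKO fell to 4 of 10 (3.43% of all genes), with Nfkbia, Nfkbie, Nfkbiz and Tnfaip3 called.

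**Figure D4:**
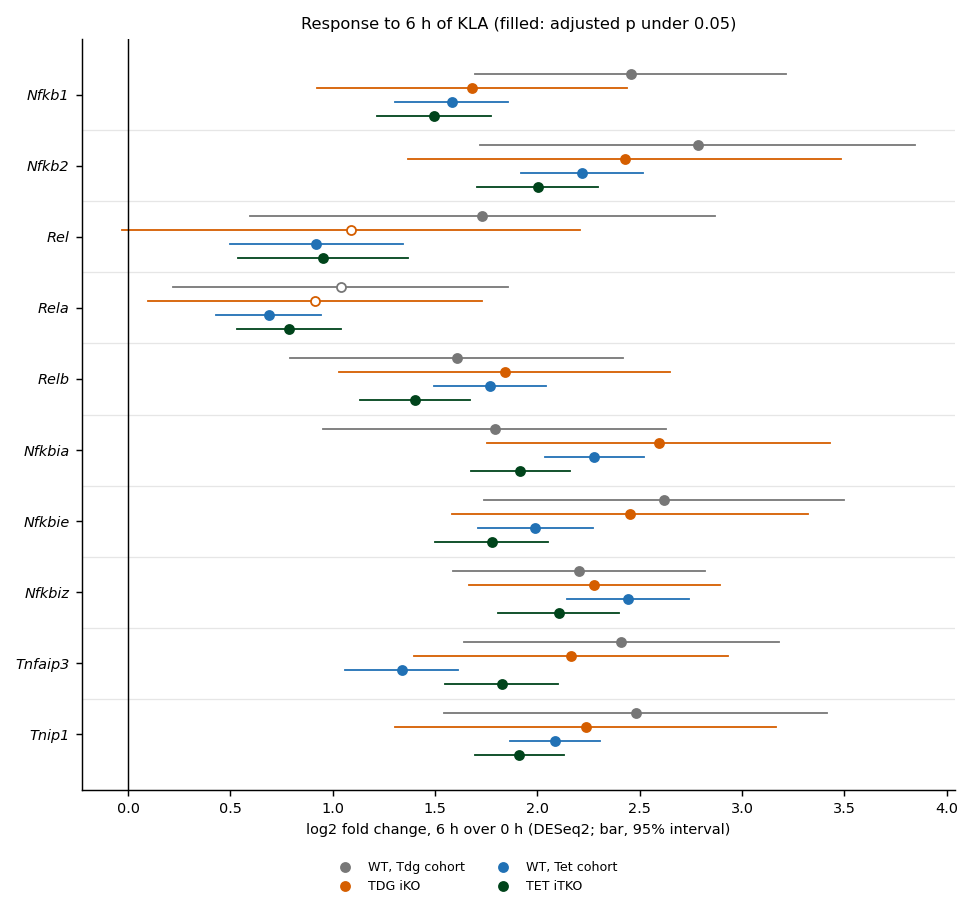
Log2 fold change of each gene after 6 h of KLA in 4 genotypes (dots; bars, 95% intervals; filled dots, DESeq2 adjusted p under 0.05). All 40 dots lie above 0, Rela has the smallest value in all 4 genotypes, and the intervals are wider in the Tdg cohort.

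The rest of the pathway was taken from lists of its parts. Of 15 genes of the IKK complex and its upstream regulators, 9 rose and none fell with KLA in WT BMDMs of the Tet cohort (median log2 fold change 0.42), led by Birc3, a ubiquitin ligase of the receptor complexes (2.28 ± 0.13), Ikbke, the IKK-epsilon kinase (1.65 ± 0.11), and the adaptor Traf2 (1.52 ± 0.17). Of 15 other inhibitors in the files, 10 rose and 1 fell. Irak3, a brake on Toll-like receptor signalling, rose by 2.34 ± 0.11, Tnip3, a paralogue of Tnip1, by 1.79 ± 0.16 and the RNase gene Zc3h12a by 1.64 ± 0.14, whereas the deubiquitinase gene Otud7b fell by 0.51. Of 34 known NF-kB target genes 33 were tested, and 27 rose and 3 fell, with a median of 2.20. The interleukin-6 gene Il6 had raw counts of 0 and 1 at 0 h and 50 and 149 at 6 h. Il1b, the interleukin-1-beta gene, rose by 6.53 ± 0.53 and the cyclooxygenase gene Ptgs2 by 6.48 ± 0.53. The cell cycle gene Ccnd1 (-2.79 ± 0.21), the urokinase gene Plau (-1.84 ± 0.15) and the survival gene Bcl2l1 (-0.999 ± 0.14) were the target genes that fell.

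Loss of the TET enzymes was next compared with WT in unstimulated BMDMs, which asks whether the set differs before any signal. DESeq2 called 6 of the 10 genes higher and none lower in TET iTKO, where 4.38% of all 12200 genes tested were called higher. edgeR called 4 of these 6, against 3.3%. The median log2 fold change of the set was 0.48, beside 0.01 over all genes. Both TET iTKO libraries lay above both WT libraries for 9 of the 10 genes, an arrangement that 27.3% of all genes had.

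The alternative NF-kB subunits were among the 6. Nfkb2 had 986 and 976 normalised counts in WT and 1341 and 1545 in TET iTKO, a log2 fold change of 0.56 ± 0.15 (adjusted p = 0.00705 by DESeq2 and 0.0643 by edgeR). Relb had 538 and 528 in WT and 739.8 and 848 in TET iTKO (0.58 ± 0.14, adjusted p = 0.00162 by DESeq2 and 0.0163 by edgeR). The canonical subunits were not called, although their 2 groups did not overlap either. Nfkb1 had 1627 and 1516 in WT and 1879.8 and 2199 in TET iTKO (0.38 ± 0.14, adjusted p = 0.0884 by DESeq2). Rel had 222 and 244 and 297 and 337 (0.45 ± 0.22, adjusted p = 0.26 by DESeq2), and Rela 1226 and 1285 and 1406 and 1492 (0.21 ± 0.13, adjusted p = 0.474 by DESeq2). The 95% interval of Rela, -0.05 to 0.46, included 0.

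Of the inhibitors 4 of 5 rose. Nfkbia had 2182 and 2290.2 normalised counts in WT and 3087 and 3287 in TET iTKO (0.51 ± 0.12, a 1.43-fold rise, adjusted p = 0.00134 by DESeq2). Nfkbiz had 571 and 555 and 776 and 972, the largest difference of the set (0.64 ± 0.16, adjusted p = 0.00143 by DESeq2). For both genes the WT libraries lay closer to each other than to either TET iTKO library. Nfkbie had 574 and 561 in WT and 720.4 and 889 in TET iTKO (0.51 ± 0.15, adjusted p = 0.0109 by DESeq2), and Tnip1 1448 and 1499 and 1883 and 1939.9 (0.38 ± 0.11, adjusted p = 0.0187 by DESeq2 and 0.0563 by edgeR). Tnfaip3 was the exception. It had 2573 and 2872 normalised counts in WT and 2352 and 2195 in TET iTKO, so both TET iTKO libraries lay below both WT libraries. The share of all genes with this lower arrangement was not counted, so it cannot be weighed. The log2 fold change of -0.26 ± 0.14 was not called (adjusted p = 0.35 by DESeq2, 95% interval -0.54 to 0.02).

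The directions of all 10 genes stayed the same when any single library of the comparison was left out, but the calls did not. With all libraries, DESeq2 called 915 of 12200 genes in either direction. Without TET iTKO 0 h replicate 2 none of the 10 was called, and 2.4% of all genes still were in either direction. Without WT 0 h replicate 1 only Nfkbiz and Relb were called (3.6% of all genes), without WT 0 h replicate 2 only Nfkbia (3.96%), and without TET iTKO 0 h replicate 1 the count was 5 of 10 (6.5%). The log2 fold change of Nfkbiz ranged from 0.46 to 0.79 and that of Nfkbia from 0.46 to 0.55 over these fits, each of which left 1 group with 1 library that was assumed to vary like the others. Across genes the TET effect at 0 h was nearly unrelated to exonic length (Spearman's rho 0.0555).

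Markers of other cell types moved with the TET genotype. Of the 8 neutrophil markers, 7 of which were in the files, 3 were called higher in TET iTKO at 0 h, and their summed level was 62.4 to 120.5 CPM against 23 to 34.1 in WT, where Retnlg was at 0. For B cells 3 of 5 markers were called higher (5.86 to 22.4 against 1.49 to 1.95 CPM), for myeloid progenitors 1 of 8 (24.3 to 87.5 against 14 to 34.2) and for dendritic cells 1 of 6 (1.75 to 4.66 against 0.39 to 0.465, with Cd209a at 0 in both). None of the 3 T cell markers tested was called, and no Th2 or CD8 T and NK cell marker had enough counts to be tested. The macrophage markers summed to 20040.0 to 20090.0 CPM in TET iTKO and 23590.0 to 24480.0 in WT, and 2 of the 7 in the files were called higher and 3 lower. These marker calls are by DESeq2. By edgeR 3 neutrophil, 3 macrophage, 2 B cell and 1 myeloid progenitor marker were called, and no dendritic cell marker. The part of these cells in the differences of the NF-kB genes was not tested, and in bulk RNA fewer cells of a type cannot be told apart from less RNA per cell.

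Further along the pathway in the same comparison, 3 of 15 IKK genes were higher in TET iTKO and none lower, namely Birc3 (0.92 ± 0.14), Traf2 (0.56 ± 0.17) and Ikbke (0.52 ± 0.11), with a list median of 0.05. Among the 15 other inhibitors 3 were higher and none lower: Tnip3 (0.91 ± 0.16), Bcl3, a nuclear IkB protein that pairs with the processed Nfkb1 and Nfkb2 products (0.63 ± 0.16), and Irak3 (0.56 ± 0.11). Of 33 target genes tested 12 were higher and 1 lower, with a median of 0.60. edgeR called 2 of the IKK genes, 3 of the other inhibitors and 8 target genes. Il6 had raw counts of 0 and 1 in WT and 6 and 30 in TET iTKO, and edgeR did not call it. Il1b was higher by 3.82 ± 0.53 and Lcn2, the gene of the iron-binding protein lipocalin 2, by 2.62 ± 0.17, whereas Plau fell by 1.30 on the log2 scale (adjusted p = 1.21e-14 by DESeq2). Lcn2 and Il1b are also abundant in neutrophils, whose markers moved in these libraries, and that part was not tested.

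After 6 h of KLA the same 10 genes were all above WT in TET iTKO by their point estimates, but none was called. DESeq2 called 6.58% of all genes there, in either direction. By unadjusted DESeq2 p under 0.05, 6 of 10 were higher (Nfkb1, Nfkb2, Rel, Rela, Nfkbie and Nfkbiz), against 7.84% of all genes. By unadjusted edgeR p under 0.05 it was 4 of 10, against 2339 of 11441 genes in either direction. After adjustment edgeR also called none of the 10. The 2 groups did not overlap for 6 of 10 genes, with TET iTKO higher, against 24.1% of all genes. Rel had 374 and 509 normalised counts in WT and 521 and 707 in TET iTKO (0.48 ± 0.21, adjusted p = 0.192 by DESeq2), an estimate that ran from 0.24 to 0.72 as single libraries were left out. Rela had 1816 and 2227 and 2412 and 2582 (0.31 ± 0.13, adjusted p = 0.163 by DESeq2). The smallest estimate was that of Nfkbia, with 10127 and 11576 in WT and 10740.0 and 13330.5 in TET iTKO (0.15 ± 0.12, 95% interval -0.09 to 0.39). Without TET iTKO 6 h replicate 2 the estimate of Nfkbia turned to -0.02, that of Nfkb2 fell to 0.08 and those of the other 8 genes lay between 0.08 and 0.25. The neutrophil markers summed to 68.8 to 98.9 CPM in TET iTKO and 30.4 to 32 in WT at 6 h, where 3 of them were called higher. The macrophage markers summed to 19070.0 to 19150.0 against 22390.0 to 24080.0 CPM, with 4 of 7 called lower, and B cell markers to 4.1 to 19.6 against 1.72 to 2.49, with 1 of 5 called higher. Of the myeloid progenitor markers 3 were called higher, and of the dendritic cell markers 1. These marker calls are by DESeq2. By edgeR 3 neutrophil and 4 macrophage markers were called, and no B cell, myeloid progenitor or dendritic cell marker. Exonic length had a Spearman's rho of 0.192 with the TET effect at 6 h across genes. The part of these in the result was not tested.

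At 6 h, Birc3 (0.42 ± 0.13) was the gene of the IKK list that was higher in TET iTKO, and none was lower. Of the other inhibitors Nfkbib, the IkB-beta gene, was higher (0.45 ± 0.15) and Otud7b lower (-0.59 ± 0.20). edgeR called none of either list. Of the target genes 12 were higher and 4 lower, with a median of 0.37, and edgeR called 11. The cytokine genes Il6 (3.21 ± 0.99), Il12b (1.83 ± 0.53) and Il1b (1.62 ± 0.50) had the largest increases. Plau (-1.33 ± 0.16), Ccl2 (-0.64 ± 0.15) and Bcl2l1 (-0.51 ± 0.15) had the largest decreases.

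Whether TET loss changed the KLA response itself was tested as an interaction. DESeq2 called none of the 10 genes, against 0.426% of all genes, and edgeR called none. In each tool 2 of 10 had an unadjusted p under 0.05, but not the same 2. They were Tnfaip3 and Nfkbia by DESeq2 (543 of 12200 genes tested) and Tnfaip3 and Relb by edgeR (721 of 11441). Nfkbia had an unadjusted p of 0.0528 by edgeR. For Tnfaip3, below WT at 0 h and above it at 6 h by its estimates, the difference in response was 0.49 ± 0.20 on the log2 scale (adjusted p = 0.685 by DESeq2). Its counts in TET iTKO went from 2352 and 2195 to 7359 and 8738. For Nfkbia it was -0.36 ± 0.17 (adjusted p = 1 by DESeq2), and for Relb -0.37 ± 0.20 (adjusted p = 1 by DESeq2). Both intervals of the named inhibitors, 0.10 to 0.88 for Tnfaip3 and -0.70 to -0.02 for Nfkbia, lay on 1 side of 0, on opposite sides. As single libraries were left out, the difference for Tnfaip3 ran from 0.30 to 0.71. Of the pathway lists, 3 target genes were called with a smaller response in TET iTKO, Lcn2 (-1.01 ± 0.23), the chemokine gene Ccl2 (-0.82 ± 0.21) and the superoxide dismutase gene Sod2 (-0.76 ± 0.14), and edgeR called none of the list. The neutrophil and B cell markers had no call in this interaction, which had a Spearman's rho of 0.162 with exonic length across genes.

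Loss of TDG in BMDMs gave no call in the set at either time. DESeq2 called 0 of 10 genes at 0 h (0% of all genes) and 0 at 6 h (0%), edgeR called 0 at both, and neither tool gave any of the 10 an unadjusted p under 0.05. The estimates at 6 h ran from -0.17 to 0.07 on the log2 scale. For Tnip1 the 6 h counts were 4004 and 5591 in WT and 2937 and 6036 in TDG iKO. The libraries of the genotypes overlapped, and the 95% interval of Tnip1 was -1.03 to 0.83, wide enough to hold a change of 0.5 in either direction. At 0 h the estimates ran from -0.78 for Nfkbia to 0.65 for Rel. Nfkbia had 1349.6 and 3537 counts in WT and 1363 and 1478 in TDG iKO, and the extreme value is that of the WT library that stood apart. So it is for Rel, with 208 and 39.1 in WT and 202 and 195 in TDG iKO. Without that library no member was called, and with it as the only WT library at 0 h Nfkbia and Rel were called, as were 11.3% of all genes. Across 8829 genes the TDG effect at 0 h had a Spearman's rho of 0.523 with exonic length. Neutrophil markers summed to 12.7 to 319 CPM in TDG iKO and 31.3 to 103 in WT at 0 h, ranges that overlap, and no gene of the IKK, inhibitor or target lists was called by DESeq2 or edgeR in TDG iKO against WT at either time or in Th2 cells. The change of the KLA response in TDG iKO was not called for any member (0% of all genes, no unadjusted p under 0.05 in the set by DESeq2 or edgeR), and none was without that library. Nfkbia and Rel were called, with 2.9% of all genes, when it was the only WT library at 0 h. This change had a Spearman's rho of -0.536 with exonic length across genes.

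The effects of TET and TDG loss were set against each other in a fit over all 16 BMDM libraries, each against the WT of its own cohort. None of the 10 differed after adjustment at 0 h (0.355% of all genes called) or at 6 h (0.0765%), by DESeq2 or edgeR. At 0 h Nfkbia (1.30 ± 0.48, adjusted p = 0.451 by DESeq2) and Nfkbiz (0.70 ± 0.33, adjusted p = 0.773 by DESeq2) had an unadjusted p under 0.05, as had 669 of 10992 genes. edgeR gave 1 member, against 599 of 11753 genes, and at 6 h neither tool gave any. With WT 0 h replicate 2 as the only WT library of the Tdg cohort at 0 h, DESeq2 called Nfkbia, Rel, Relb and Tnfaip3 and 20.8% of all genes, and without that library it called none of the 10. Across genes this 0 h difference had a Spearman's rho of -0.408 with exonic length. Of the pathway lists 3 target genes were called higher at 0 h by DESeq2 and none by edgeR, Il1b (3.68 ± 0.84), Ptgs2 (2.96 ± 0.66) and Lcn2 (2.74 ± 0.54), and none at 6 h. The 6 calls in TET iTKO and the absence of calls in TDG iKO are therefore not shown to differ. Cohort, culture and sequencing run could not be told apart from each other in levels across the 2 cohorts, for example in the Tnfaip3 level per kb at 0 h, 182 ± 82.9 in WT of the Tdg cohort and 325 ± 25.8 in WT of the Tet cohort.

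**Figure D5:**
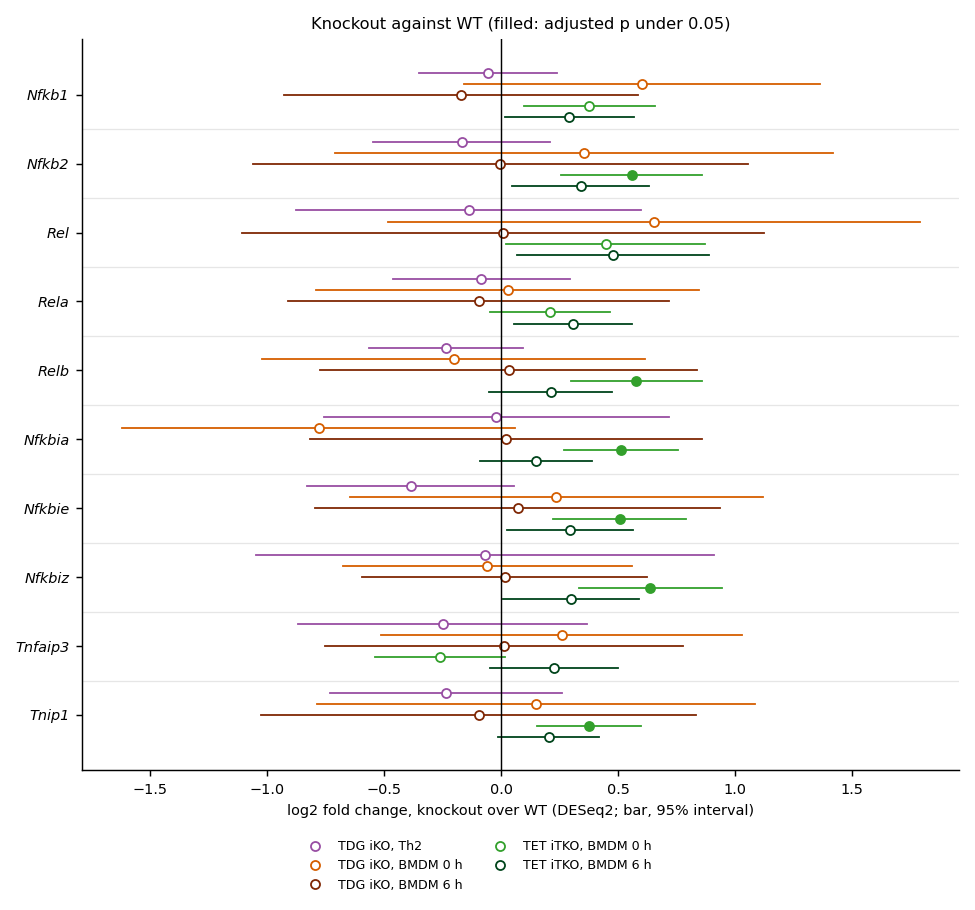
Log2 fold change of each gene between knockout and WT in 5 comparisons (dots; bars, 95% intervals; filled dots, DESeq2 adjusted p under 0.05). The filled dots are the 6 genes called in unstimulated TET iTKO BMDMs, and Tnfaip3 is the gene with a value below 0 in that comparison.

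In Th2 cells TDG loss was not followed by a call in the set either. DESeq2 and edgeR called 0 of 10 genes (0% of all genes by DESeq2), and neither gave a member an unadjusted p under 0.05. All 10 estimates were below 0, from -0.39 for Nfkbie to -0.02 for Nfkbia, with a median of -0.154 beside -0.0076 over all genes. Across genes this TDG effect had a Spearman's rho of -0.311 with exonic length, and the part of that trend in the estimates was not tested. Nfkbie had 342, 281 and 305 normalised counts in WT samples and 225, 201 and 277 in TDG iKO samples (-0.39 ± 0.23, 95% interval -0.83 to 0.06). Relb, with 517, 573 and 484 and 426, 467 and 439, was the other gene whose groups did not overlap (-0.24 ± 0.17). Within same-numbered pairs, TDG iKO lay below WT in all 3 pairs for these 2 genes and for Tnfaip3 and Tnip1. The shares of all genes with groups apart or with all 3 pairs lower were not counted, so these counts cannot be weighed. The fit with the replicate block called 0 of 10. The spread within a genotype was wider than these differences for several genes and followed the replicate. Nfkbiz, for example, was at 609 and 474 in replicates 1 and 2 of WT and at 562 and 521 in those of TDG iKO, but at 1330.0 and 1221 in the summed replicates 3 and 4 of WT and TDG iKO. Nfkbia ran the other way, with 3059.7, 3018 and 1723 in WT and 3316, 2846 and 1524 in TDG iKO, lowest in the summed replicates of both genotypes.

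Unstimulated WT BMDMs were compared with WT Th2 cells, the latter harvested after receptor stimulation and growth in IL-2, so that cell type and culture cannot be told apart. Of the 10 genes 3 were called by DESeq2 (55.9% of all genes) and 3 by edgeR (60.1%), a lower share than among all genes. Nfkb1 was higher in Th2 cells by 1.85 ± 0.23 on the log2 scale, a 3.6-fold difference (adjusted p = 3.25e-15 by DESeq2). Tnip1 (-1.02 ± 0.27) and Nfkbie (-0.78 ± 0.24) were lower. The other 7 lay between -0.55 for Rel and 0.12 for Nfkb2. For the further fits named next, the share of all genes called was not counted, so their count cannot be set against it. With the Tet cohort alone as the BMDM side, or without WT 0 h replicate 2 of the Tdg cohort, 5 of 10 genes were called.

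Last, the genes whose pattern was most like each member were named by Pearson's r over the 16 BMDM libraries, on log2(normalised count + 1) with the mean of each cohort subtracted, among 9474 other genes with a mean count of at least 50. The 16 points share stimulation groups and depth, so r is a description. Among the 10 members Nfkb2, Tnip1 and Nfkbie had the highest r with each other. Nfkb2 and Tnip1 had r of 0.996, the highest value for either gene, and Nfkb2 and Nfkbie 0.995. Zc3h12a came second for both Nfkb2 and Tnip1 (0.995 each), and Ikbke first for Nfkbie (0.995). Relb was most like Lmo4 (0.995), Traf1 (0.995) and Ifngr2 (0.993), Nfkb1 like Rassf4 (0.991), Kif3c (0.990) and Zhx2 (0.990), and Tnfaip3 like Hbp1 (0.994), Rhoq (0.992) and Spryd7 (0.987). For Nfkbia the 3 genes were Sfpi1, Ift57 and Ptges (0.988 each), for Nfkbiz Serp1 (0.992), Lpcat2 (0.991) and Slc7a11 (0.990), and for Rela Mllt6 (0.991), Itga5 (0.986) and Arid3a (0.986). Rel had the weakest best match, Ubtd2 (0.983), ahead of Clint1 (0.982) and Klf3 (0.980), and the lowest r with another member, 0.595 with Nfkbia. That pair is also the pair with the extreme values in the library that stood apart. Without subtracting cohort means the first-ranked gene was the same for 6 of the 10 members, and for Rel, Rela, Nfkbia and Tnfaip3 it was another.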

How the data were processed

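The 24 libraries were polyA-selected RNA-seq of BMDMs and Th2 cells, and the deposited files hold raw read counts per gene symbol, made by the authors with HISAT2 on mm9 and HTSeq. The HISAT2 and HTSeq versions, the annotation and the strand setting were not given in the sources used here. Each file has 23420 gene symbols and 5 tally rows, which held 32.8 to 51.6% of reads and were left out. Assigned counts ran from 4982950 to 26657729 per library (median 14853861), so genes with few counts have the widest errors.

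DESeq2 1.42.0 (Wald test, Benjamini-Hochberg adjusted p under 0.05 over all genes tested) was run in R 4.3.3 on the counts, in separate fits for Th2 cells, the Tdg cohort and the Tet cohort, with joint fits for comparisons across cohorts or cell types. edgeR 4.0.16 (quasi-likelihood) was the alternative, on genes kept by its filterByExpr function. Further alternatives were TMM factors in DESeq2, a filter of 10 counts in 2 libraries, a replicate block, fits on the compared libraries alone and leaving out each library. DESeq2's independent filtering set the genes tested. Values quoted are counts divided by DESeq2 size factors of their fit, with log2 fold changes ± SE. Replicates 3 and 4 of each Th2 genotype were summed. Same-numbered Th2 samples deviated together from their genotype means (correlations 0.510, 0.733 and 0.919, across 9858 genes), and the labels do not say what they shared. All 10 genes are named in the comparisons, and from each pathway list at most 3 called genes with the largest increase and 3 with the largest decrease, where the normalised count averaged 50 or more. The members and lists were chosen with earlier results of these data known. The tests were run on simulated counts with planted changes larger than any TET effect on the 10 genes, so effects of that smaller size were not checked. Labels name no separate animals or cultures as the source of replicates.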

Additional observations from a re-analysis of the deposited data

How the results depend on the processing

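The calls depended most on single libraries. When each library was left out in turn, the number of the 10 genes called ran from 0 to 5 for TET iTKO against WT at 0 h, from 0 to 2 for the same comparison at 6 h, from 4 to 8 for KLA in TDG iKO, from 0 to 2 for TDG iKO against WT at 0 h, from 0 to 2 for the change of the KLA response in TDG iKO, from 0 to 1 for that in TET iTKO, from 0 to 4 for the TET effect minus the TDG effect at 0 h, and from 3 to 5 for Th2 cells against BMDMs. The cause was not tested. In these fits the share of all genes called was not counted for TET iTKO against WT at 6 h. Nor was it for the change of the KLA response in TET iTKO or for Th2 cells against BMDMs, so those counts cannot be weighed. The value of Nfkbia in TET iTKO against WT at 6 h, 0.15, became -0.0175 without TET iTKO 6 h replicate 2 and ran up to 0.294 without other libraries. edgeR called 4 genes for KLA in TDG iKO where DESeq2 called 8, and with the Tet cohort as the only BMDMs 5 genes differed from Th2 cells.

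In BMDMs, with 2 pairs per comparison, nothing in the labels ties same-numbered libraries to 1 animal or day. Their deviations correlated at 0.361 to 0.823 between times within a genotype, at 0.313 and 0.822 between TDG iKO and WT, and at 0.0175 and 0.0650 between TET iTKO and WT. With the replicate block nested in genotype, KLA calls in the Tdg cohort were 10 in WT and 9 in TDG iKO, Rela being added in both. With the replicate block nested in genotype, Tnfaip3 was called in the change of the KLA response in TET iTKO (1 of 10 genes, adjusted p = 0.0314 by DESeq2). With the replicate block, 7 genes were called in TET iTKO at 0 h, Nfkb1 being added. The share of all genes called was not counted in any of these block fits, so the added calls cannot be weighed against it. In Th2 cells the fit with the replicate block called 0. Other alternatives, TMM factors and a filter on low counts among them, left the number of genes called within 1.5 times.

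Counts over all genes differed by more than 1.5 times between DESeq2 and edgeR for KLA in the Tdg cohort (1001 and 413 in WT, 824 and 346 in TDG iKO), the change of the KLA response in TET iTKO (52 and 1) and the TET effect minus the TDG effect (39 and 0 at 0 h, 10 and 1 at 6 h). For TDG iKO against WT neither tool called a gene, and DESeq2 and edgeR gave an unadjusted p under 0.05 to 77 and 55 genes in Th2 cells, 265 and 125 in BMDMs at 0 h and 34 and 27 at 6 h.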
